A study of Mus musculus with 8 samples.

Results

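The genes described here are the 9 members of the MHC class I and peptide-loading machinery that the study's count table lists: the light chain B2m, the heavy chains H2-K1, H2-D1 and H2-T23, the transporter subunits Tap1 and Tap2, the loading chaperone Tapbp, the trimming enzyme Erap1 and the regulator Nlrc5. They were found by gene symbol among 24552 genes. Bulk 3′ RNA sequencing was performed on exorbital lacrimal glands (LGs) of female C57BL/6J mice. From 6 to 7 months of age, 4 mice had been fed ad libitum (AL) and 4 had been placed on a 40% calorie restriction (CR), and glands were collected after 4 months, at 10 to 11 months of age. The labels give no transgene and no other treatment, and restricted mice received their food once a day, shortly before the dark phase. The study used purchased mice and mice aged in-house. It fed cohorts at Jackson Laboratory and at Baylor College of Medicine on different chow. In the Baylor cohort, restricted mice got a chow with 40% more vitamins and micronutrients than the AL chow. The labels do not say which source or cohort each library had. The labels list 8 separate samples and no batch, so p-values measure the spread among these libraries, which may be technical in part. The question was whether the antigen presentation genes of the LG differ between the diets.

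MHC class I molecules show fragments of a cell's own proteins to CD8+ T cells and to natural killer cells, and nearly every nucleated cell makes them. A heavy chain folds with beta-2-microglobulin in the endoplasmic reticulum, where calnexin and calreticulin assist. Peptides cut by the proteasome are pumped in by the TAP1-TAP2 transporter, trimmed by ERAP1 and fitted into the groove with the help of tapasin, the product of Tapbp. NLRC5 acts on the promoters of these genes with RFX, CREB and NF-Y factors bound to conserved boxes, and interferons raise most of them. MHC class II molecules, under the related regulator CIITA, are made mainly by professional antigen-presenting cells and show peptides to CD4+ T cells.

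The promoters of the light chain and of both classical heavy chains are shown because these 3 genes took most of the members' counts and 2 of them, H2-K1 and H2-D1, are described below with the lowest unadjusted p of the members. The sequences are from RefSeq on GRCm38.p6, the assembly called mm10, and each runs 5′ to 3′ from 250 bases before the annotated start to 30 after it. Capitals mark matches, on either strand, to 4 motifs: GAANNGAAA for interferon regulatory factors, GGNNTTNCC for NF-kB, TGACG for the X2 box bound by CREB and CCAAT for the Y box bound by NF-Y. The motifs did not overlap one another in these windows. For H2-K1 the first of 2 listed starts was used.
B2m, chr2:122147437-122147716, plus strand: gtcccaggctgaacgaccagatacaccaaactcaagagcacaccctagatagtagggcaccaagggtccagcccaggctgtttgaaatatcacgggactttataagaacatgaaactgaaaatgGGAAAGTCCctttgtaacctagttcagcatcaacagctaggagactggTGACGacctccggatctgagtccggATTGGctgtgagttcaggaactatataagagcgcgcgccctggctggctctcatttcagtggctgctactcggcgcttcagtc
H2-K1, chr17:34000318-34000597, minus strand: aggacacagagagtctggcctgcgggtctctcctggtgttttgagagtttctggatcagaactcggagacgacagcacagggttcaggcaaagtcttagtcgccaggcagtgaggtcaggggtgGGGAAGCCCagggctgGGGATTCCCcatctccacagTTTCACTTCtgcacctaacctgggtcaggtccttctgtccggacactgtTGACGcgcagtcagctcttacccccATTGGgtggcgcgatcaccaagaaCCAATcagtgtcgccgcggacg
H2-D1, chr17:35262844-35263123, plus strand: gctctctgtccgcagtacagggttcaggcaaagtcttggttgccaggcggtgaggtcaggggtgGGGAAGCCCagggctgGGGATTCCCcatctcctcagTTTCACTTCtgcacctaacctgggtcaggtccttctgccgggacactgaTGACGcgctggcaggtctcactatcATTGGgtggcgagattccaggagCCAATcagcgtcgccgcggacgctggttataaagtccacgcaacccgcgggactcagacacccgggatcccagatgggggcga

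The H2-K1 and H2-D1 promoters were near copies of each other, with 192 of 219 aligned bases identical (87.7%). In both, the run of NF-kB, interferon, X2 and Y letters came in the same order. The match to the interferon motif lay 90 bases before the annotated H2-K1 start and 150 bases before that of H2-D1, and the other shared matches were also 60 bases further from the H2-D1 start, except the last Y match, which lay after the annotated H2-K1 start and 53 bases before that of H2-D1. The B2m window held NF-kB, X2 and Y matches and no match to the letters used here as the interferon motif. It did hold gaaactgaaa, a like repeat whose gap is 1 base longer than those letters allow. The search could not find that form, so it does not show that the B2m window lacks an interferon element. Of the 9 genes, 7 had a promoter in the table, and Tap2 and Nlrc5 had none. Among the 7, the interferon motif as searched was found in 2 (H2-K1 and H2-D1), against 7.11% of all 27025 promoters. The form with the longer gap also stood, on the other strand, in H2-T23 (tttctctttc) and Erap1 (tttcactttc). It was not counted over all promoters. These interferon counts therefore hold for the searched letters only. The NF-kB motif was found in 3 of 7 (14.9% of all), X2 in 4 of 7 (20.1%) and Y in 6 of 7 (36.6%). Of 8 MHC class II promoters in the table, 0 held the interferon motif as searched, 5 the NF-kB motif, 1 X2 and 7 Y. These matches describe letters in a window and are not evidence of binding.

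Total counts were 12051881 to 22156511 per library, and 11211 genes were counted often enough to be tested. Levels are given as CPM, counts set to a common library total and scaled by relative log expression. A gene was called when edgeR's quasi-likelihood test gave a Benjamini-Hochberg adjusted p under 0.05 over all genes tested with a fold change of at least 1.5. That rule called 222 genes, 134 higher and 88 lower in CR. The list of 13 epithelial and lacrimal markers summed to 172897 to 198307 CPM in AL and 77838.6 to 175328 CPM in CR. Most of that sum was Obp1a, at 147912 to 163208 CPM in AL and 59030 to 152782 CPM in CR, and the sum does not describe the list, in which 7 genes were fitted higher and 6 lower with a median log2 fold change of 0.12 (-0.06 without CR 1). Transcripts typical of the parotid gland were also present. The 6 parotid markers summed to 237 to 23502 CPM in AL, to 183591 to 230419 CPM in CR 1 to 3 and to 17896 CPM in CR 4, and they exceeded the lacrimal list in CR 1 to 3. Of the parotid markers 3 of the 6 were called higher in CR with edgeR and all 6 passed p under 0.05 before adjustment. The count called ran from 1 without AL 2 or AL 3 to 6 without CR 4, and DESeq2 called 6. The mean log2 level of the parotid markers was 1.89 to 6.99 in AL and 9.15 to 12.9 in CR, with no overlap. Fits that hold this level as a covariate can therefore hardly tell it apart from diet, and they called 0 of all genes with edgeR (599 higher and 476 lower passed p under 0.05 before adjustment). A difference lost in such a fit does not show that parotid transcripts account for it. The lacrimal secretoglobins Scgb2b7, Scgb1b7 and Scgb1b29 and the fibroblast collagens Col1a1 and Col3a1 were called lower in CR. The epithelial and lacrimal list had 1 call lower without AL 1, AL 2, CR 2 or CR 3 and 5 without CR 4. With 1 library left out, the 3 secretoglobins were at -13.5 to -7.29. With at least 10 counts required in every library, 0 of 10 genes of that list were called. Of 7 fibroblast markers 6 were fitted lower, and 2 were called whichever library was left out. Of the endothelial, adipose and muscle markers 0 were called with edgeR, and 1, 2 and 2 of them, respectively, passed p under 0.05 before adjustment, all higher. Of the adipose markers 1 was called higher by DESeq2, which tested 5, and by edgeR without the filter on low counts or without CR 4. In bulk tissue, fewer cells of a type and less RNA per cell cannot be told apart.

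Of the 9 class I genes, 8 could be tested and 0 were called in either direction with edgeR, beside 1.98% of all genes tested (1.2% higher and 0.785% lower). DESeq2 called 0 of them as well. The fitted level was higher in CR for 7 of the 8 and lower for Erap1. Before adjustment, 3 of the 8 passed p under 0.05 as higher (H2-K1, H2-D1 and Nlrc5) and 0 as lower, beside 8.62% higher and 8.1% lower among all genes tested. The count of 3 depended on single libraries. It was 0 without AL 1, 1 without AL 2, AL 4, CR 2 or CR 3, and 5 without AL 3. With the parotid covariate it was 0. The median log2 fold change (CR minus AL) of the 8 was 0.41, against 0.01 over all genes tested, and it ran from 0.26 without AL 1 to 0.69 without AL 3. In all 9 genes the CR libraries overlapped the AL libraries in level, where 9.79% of all genes tested did not overlap (4.58% with CR above and 5.2% with CR below).

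**Figure D1:**
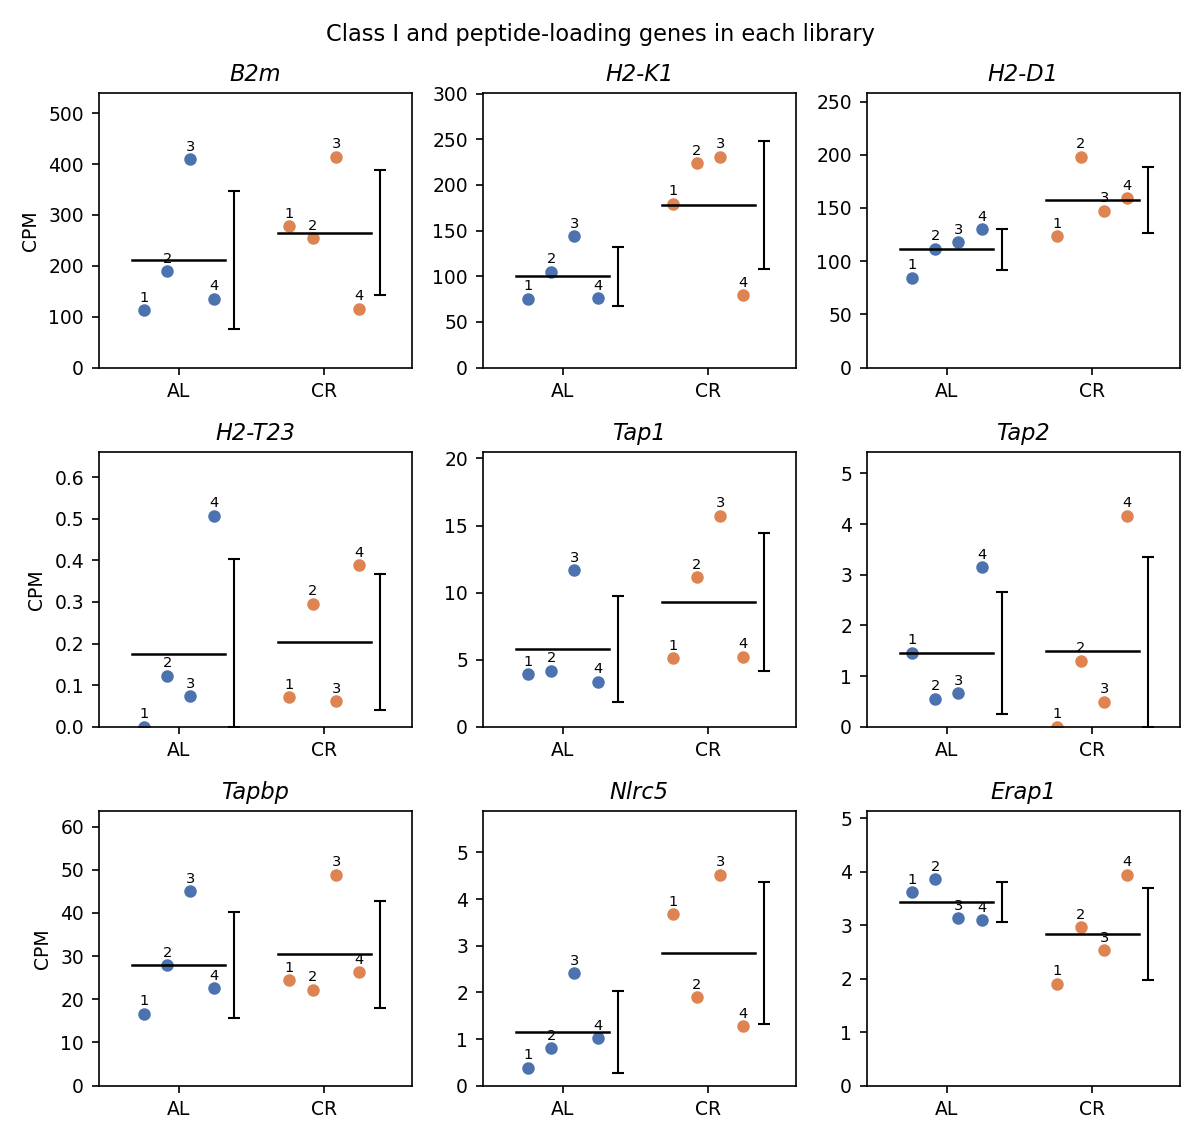
CPM of each of the 9 class I and peptide-loading genes in the 4 AL (blue) and 4 CR (orange) libraries, on linear axes that start at 0 and differ between panels. Digits are library numbers, lines are means and the bars beside them are 1 SD, cut at 0. H2-K1 is at 179 to 231 CPM in CR 1 to 3 and at 79.1 CPM in CR 4, and libraries numbered 3 are highest in both diets for B2m, H2-K1, Tap1, Tapbp and Nlrc5.

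B2m (gene ID 12010, chr2:122147687-122153082) encodes the light chain that all classical class I molecules share. It was at 113, 189, 409 and 135 CPM in AL 1 to 4 and at 278, 254, 414 and 116 CPM in CR 1 to 4. The diets overlapped over nearly their whole range, and library 3 was highest in each. The means were 212 ± 135 CPM in AL and 265 ± 122 CPM in CR (SD, n = 4 each). CR and AL differed by 0.33 on the log2 scale (SE 0.43, adjusted p = 0.779 by edgeR), with a 95% confidence interval of -0.60 to 1.26. Without AL 3, the highest AL library, it was 0.86 (adjusted p = 0.320), and without CR 3, the highest CR library, 0.04 (adjusted p = 0.987). It was 0.12 without AL 1, 0.16 without AL 4 and 0.58 without CR 4, and with the parotid covariate it was -0.22 (adjusted p = 0.958).

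H2-K1 (gene ID 14972, chr17:33996012-34000619) encodes the K heavy chain, 1 of the classical peptide-presenting chains. It was at 75.4, 105, 144 and 76.4 CPM in AL 1 to 4 and at 179, 224, 231 and 79.1 CPM in CR 1 to 4. Of the CR libraries, 3 lay above every AL library, and CR 4 lay among the lowest AL libraries. The means were 100.2 ± 32.2 CPM in AL and 178 ± 70.01 CPM in CR (SD, n = 4 each). The log2 fold change of 0.83 (SE 0.32, 1.78-fold, interval 0.13 to 1.53) had an unadjusted p of 0.0234 and an adjusted p of 0.205 by edgeR. Without CR 4, H2-K1 passed the rule, at 1.08 with an adjusted p of 0.0190. With the parotid covariate, which hardly separates from diet, the H2-K1 difference was 0.07 (adjusted p = 0.984), and the part of parotid transcripts in it was not tested.

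H2-D1 (gene ID 14964, chr17:35263094-35267497) encodes the D heavy chain, the other classical chain of C57BL/6 mice. It was at 84.5, 112, 118 and 130 CPM in AL 1 to 4 and at 124, 198, 147 and 159 CPM in CR 1 to 4. Only CR 1 fell within the AL range. Its spread was the narrowest of the 3 abundant members in both diets, with a highest to lowest ratio of 1.54 in AL and 1.60 in CR, against 3.62 and 3.58 for B2m. The means were 111 ± 19.3 and 157 ± 31.1 CPM (SD, n = 4 each). CR exceeded AL by 0.50 on the log2 scale (SE 0.20, interval 0.06 to 0.94), with an unadjusted p of 0.0277 and an adjusted p of 0.222 by edgeR. With the parotid covariate it was 0.71 (adjusted p = 0.595). Over the 17 alternatives run it stayed between 0.38 and 0.71, and in 12 of them it had p under 0.05 before adjustment.

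H2-T23 (gene ID 15040, chr17:36029977-36032701) encodes Qa-1, a nonclassical chain read by natural killer receptors. It drew 0, 2, 1 and 10 counts in AL 1 to 4 and 1, 5, 1 and 7 counts in CR 1 to 4, too few for the fit across genes. Library 4 was highest in both diets. The levels were 0.176 ± 0.227 CPM in AL and 0.204 ± 0.164 CPM in CR (SD, n = 4 each), with p = 0.886 in a two-sided exact permutation test. A count of 0 in AL 1 allows up to 0.231 CPM, for counting error only, so small differences were not detectable at this depth. Of the 526 windows of 75 bases in the last 600 bases of its longest coding transcript in GENCODE M21, 135 (25.7%) also occurred in transcripts of other genes, among them H2-D1, H2-Q7 and H2-T22. Reads from such windows could have been split or dropped, so this level is uncertain. For the other 8 members 0 of 526 windows were shared.

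The TAP transporter carries peptides from the cytosol to the waiting heavy chains, and its subunits lie close together on chromosome 17. Tap1 (gene ID 21354, chr17:34187556-34197225) was at 3.93, 4.17, 11.7 and 3.35 CPM in AL 1 to 4 and at 5.09, 11.1, 15.7 and 5.22 CPM in CR 1 to 4. AL 3 stood far above the other AL libraries, which all lay below every CR library. The log2 fold change was 0.69 (SE 0.46, adjusted p = 0.499 by edgeR), and without AL 3 it was 1.28 (unadjusted p = 0.00897, adjusted p = 0.175). Without CR 3 it was 0.32 (unadjusted p = 0.505, adjusted p = 0.833). With the parotid covariate it was 0.09 (adjusted p = 0.985). Tap2 (gene ID 21355, chr17:34204479-34216321) drew 19, 9, 9 and 62 counts in AL 1 to 4 and 0, 22, 8 and 75 counts in CR 1 to 4. Library 4 was highest in both diets, and libraries numbered 3, where Tap1 was highest, were low. The log2 fold change of Tap2 was 0.04 (SE 0.93, adjusted p = 0.992), with an interval of -1.98 to 2.05 that reaches far to either side of 0.

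The within-library ratio of Tap1 to Tap2 counts ran from 1.06 to 16.9 in AL and from 1.25 to 145 in CR, after 0.5 was added to both counts because CR 1 had no Tap2 count. Its log2 mean differed by 1.76 between the diets (exact permutation p = 0.343, two-sided), from 0.66 without CR 1 to 2.95 without CR 4. Tap1 shares exon sequence on the other strand with Psmb9, and Tap2 with Gm15821 and Gm20496. Whether the counting used strand is not given in the sources used here, and without strand reads of such partners cannot be told apart.

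Tapbp (gene ID 21356, chr17:33919478-33929290), the bridge between the transporter and the empty heavy chain, was at 16.6, 27.9, 45.1 and 22.5 CPM in AL 1 to 4 and at 24.4, 22.2, 48.9 and 26.3 CPM in CR 1 to 4. The diets overlapped, with AL 1 below every CR library and CR 3 above every AL library, and library 3 was highest in each. The fitted log2 difference was 0.12 (SE 0.32, interval -0.58 to 0.81, adjusted p = 0.908 by edgeR). Its exons overlap Zbtb22 on the same strand and Gm19412 on the other. Erap1 (gene ID 80898, chr13:74639573-74693205), which cuts peptides to the length the groove accepts, was at 3.62, 3.86, 3.13 and 3.09 CPM in AL 1 to 4 and at 1.91, 2.96, 2.54 and 3.94 CPM in CR 1 to 4. Of the CR libraries, 3 lay below every AL library and CR 4 above them all. It was the one tested member fitted lower in CR, by a log2 fold change of -0.27 (SE 0.31, adjusted p = 0.746), and its exons overlap Cast on the other strand.

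Nlrc5 (gene ID 434341, chr8:94434335-94527272), the class I transactivator, had the highest fitted difference of the members. It was at 0.385, 0.797, 2.40 and 1.01 CPM in AL 1 to 4, from 5 to 33 counts, and at 3.68, 1.89, 4.52 and 1.28 CPM in CR 1 to 4, from 23 to 73 counts. AL 1, AL 2 and AL 4 lay below every CR library, while AL 3 lay above CR 2 and CR 4. The means were 1.15 ± 0.876 and 2.84 ± 1.51 CPM (SD, n = 4 each). The fitted log2 difference was 1.30 (SE 0.58, 2.46-fold, interval 0.05 to 2.55), with an unadjusted p of 0.0430 and an adjusted p of 0.279 by edgeR. Its direction was higher in CR in all 16 alternatives in which it could be fitted, at 0.99 to 1.91, and in none was it called.

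**Figure D2:**
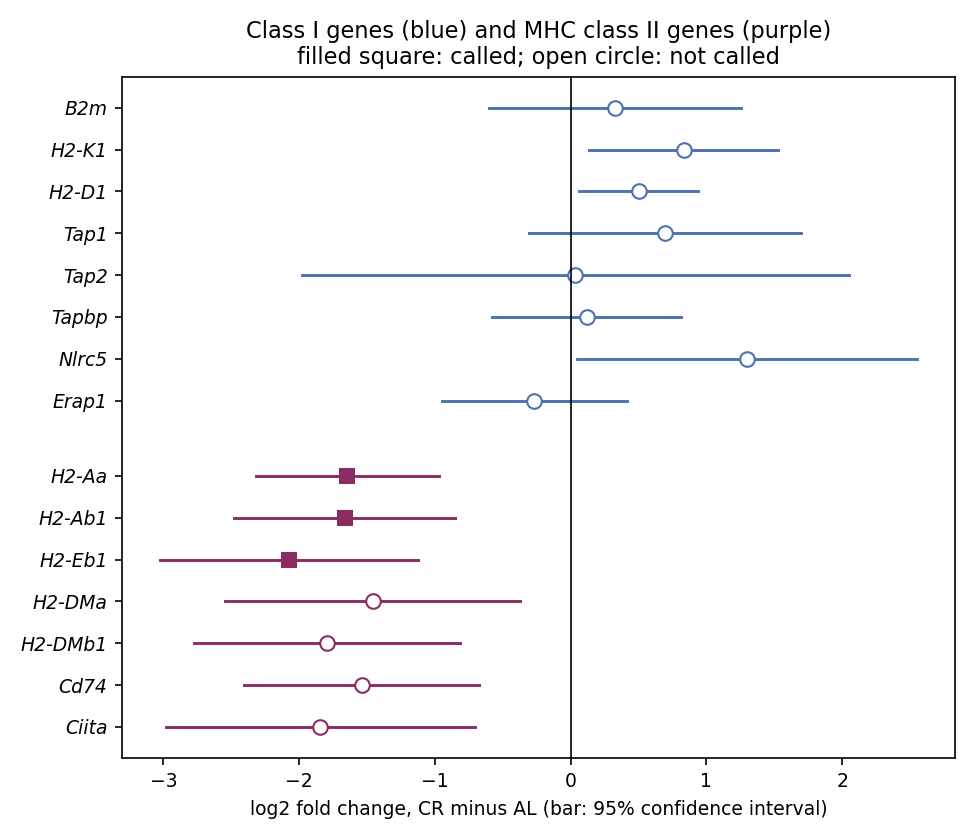
Log2 fold change (CR minus AL) with its 95% confidence interval from edgeR for the 8 class I genes tested (blue) and the 7 MHC class II genes tested (purple). Filled squares are called and open circles are not. The class I estimates lie between -0.27 and 1.30 and the class II estimates between -2.07 and -1.46, and every class II interval ends below 0.

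Differences between the diets in the proportions of the class I chains did not exceed the spread of the libraries. The ratio of B2m counts to summed H2-K1 and H2-D1 counts was 0.706, 0.873, 1.56 and 0.655 in AL and 0.917, 0.602, 1.10 and 0.485 in CR (exact permutation p = 0.486). The ratio of H2-D1 to H2-K1 was 1.12, 1.06, 0.818 and 1.71 in AL and 0.690, 0.884, 0.639 and 2.02 in CR (exact permutation p = 0.514). CR 4 stood apart in the second ratio, with the highest value of the 8 libraries. The ratio of H2-T23 to the classical chains, with 0.5 added to both counts, differed by -0.17 on the log2 scale (exact permutation p = 0.857), and its direction turned with single libraries, from -0.69 without CR 4 to 0.49 without AL 4. Over the 6 ratios tested, these 3 and that of Tap1 to Tap2 had adjusted p of 0.771 to 0.857.

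MHC class II molecules present peptides taken up from outside the cell. Of 11 class II genes listed, 7 could be tested, 3 were called lower in CR and 0 higher, and all 7 were fitted lower with p under 0.05 before adjustment. Their median log2 fold change was -1.66. H2-Aa, the alpha chain of I-A, was at 80.1, 141, 250 and 129 CPM in AL 1 to 4 and at 42.1, 35.5, 60.4 and 54.1 CPM in CR 1 to 4 (log2 fold change -1.64, SE 0.31, adjusted p = 0.0229 by edgeR). Its partner H2-Ab1 fell by 1.66 on the log2 scale (SE 0.37, adjusted p = 0.0450), and H2-Eb1 fell by 2.07 (SE 0.44, adjusted p = 0.0343). For 6 of the 7 genes every CR library lay below every AL library, beside 5.2% of all genes tested. The invariant chain Cd74 (-1.54, adjusted p = 0.0703) and the class II regulator Ciita (-1.84, adjusted p = 0.0946) were not called. The class II calls depended on single libraries. Without AL 2, CR 1, CR 2 or CR 3, 0 were called with edgeR, though 7 or 8 genes had p under 0.05 before adjustment in each case. The fitted differences were -2.22 to -1.54 without AL 2 and -2.03 to -1.45 without CR 2, beside -2.07 to -1.46 with all libraries. Without AL 3, 2 were called and the 7 genes were at -1.35 to -0.73. With the parotid covariate 0 of 7 were called and 3 passed p under 0.05 before adjustment, with log2 fold changes from -2.84 to -1.13. DESeq2 tested 10 genes of the list and called 7 lower, H2-Ob, which edgeR's filter left out, among them and H2-DMa not.

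The difference between the classes was tested within libraries, where scaling between libraries cancels, with a ratio chosen with earlier results of these data known. Summed counts of H2-Aa, H2-Ab1, H2-Eb1 and Cd74 were 0.687, 0.727, 1.01 and 0.762 times those of B2m, H2-K1 and H2-D1 in AL 1 to 4. In CR 1 to 4 they were 0.158, 0.126, 0.188 and 0.297 times the class I counts. Every CR library lay below every AL library. The mean log2 ratio was -0.34 ± 0.25 in AL and -2.45 ± 0.52 in CR (SD, n = 4 each), a 4.32-fold lower ratio in CR. The two-sided exact permutation p of 0.0286 is the smallest that 4 against 4 can give, and adjusted over the 6 ratios it was 0.171, which no ratio could have brought under 0.05 alone. Leaving out any 1 library gave log2 differences of -1.93 to -2.34.

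**Figure D3:**
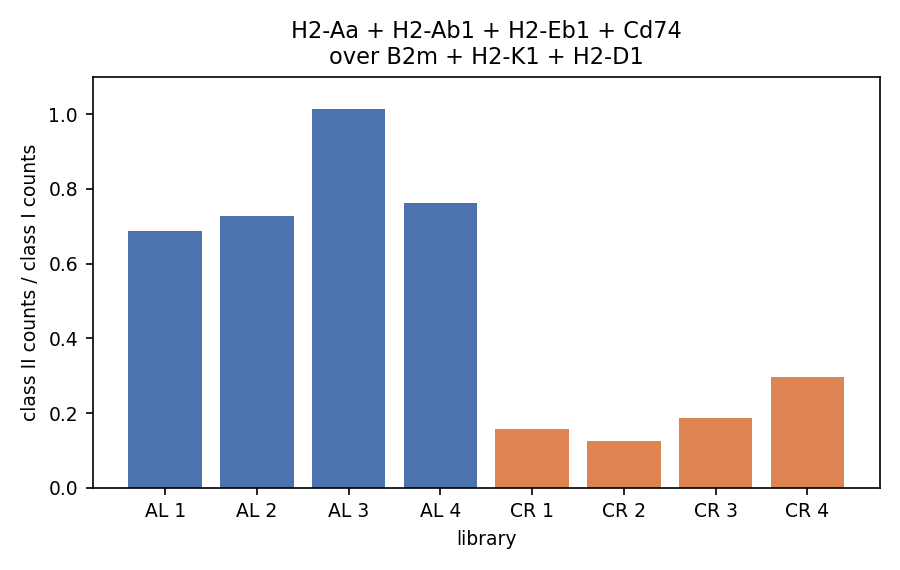
Ratio of summed raw counts of 4 MHC class II genes to those of B2m, H2-K1 and H2-D1 in each library, AL in blue and CR in orange, on a linear axis from 0. The AL libraries are at 0.687 to 1.01 and the CR libraries at 0.126 to 0.297.

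Leukocyte markers were fitted lower in CR. Of 24 markers in the table, 14 were tested and all 14 were fitted lower in CR, 10 of them with p under 0.05 before adjustment, and 1, the myeloid lysozyme Lyz2, was called with edgeR. That call was lost without AL 2, AL 3, CR 1, CR 2 or CR 3 (0 called, 5 to 12 with p under 0.05 before adjustment) and with the parotid covariate (0 called, 3 with p under 0.05 before adjustment), while DESeq2 called 8 lower of the 24 it tested. The log2 fold change of Lyz2 was -1.48, and -1.73 to -1.28 when 1 library was left out. Their median log2 fold change was -1.13. The list summed to 109 to 344 CPM in AL and 69.5 to 113 CPM in CR. Over the same libraries the 9 class I genes summed to 299 to 734 CPM in AL and 396 to 865 CPM in CR. The B cell marker Cd79a was at 0 in 7 of the 8 libraries. The part of leukocyte transcripts in the class I and class II levels was not tested.

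Other class I and class I-like chains gave 8 tested of 22 listed, 0 called with edgeR and 1 at p under 0.05 before adjustment, with a median log2 fold change of -0.41. Of that list 8 genes had no count in any library. H2-M2, a nonclassical chain, was at 0.616 to 3.57 CPM in AL and 0.237 to 1.55 CPM in CR (-1.63, adjusted p = 0.210), and Hfe, an iron regulator with a class I fold, was at -0.80 (adjusted p = 0.488). Azgp1, a secreted protein with that fold, was the most counted, at 46.0 to 54.5 CPM in AL and 34.9 to 59.9 CPM in CR (-0.21, adjusted p = 0.635).

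The list of loading and quality control partners, most of them chaperones and folding enzymes of the endoplasmic reticulum, gave 0 of 9 called with edgeR and 1 at p under 0.05 before adjustment, with a median of -0.24. That gene was calnexin (Canx), the first chaperone of a new heavy chain. It was at 331, 245, 287 and 247 CPM in AL 1 to 4 and at 182, 114, 154 and 186 CPM in CR 1 to 4. No CR library reached the lowest AL library, and the log2 fold change was -0.80 (SE 0.21, adjusted p = 0.0708 by edgeR). DESeq2 called it lower (-0.80, adjusted p = 0.00539), as did edgeR without CR 4 (-0.89, adjusted p = 0.0312). Calreticulin (Calr) was at 447 to 673 CPM in AL and 188 to 493 CPM in CR (-0.59, adjusted p = 0.337). The chaperone Hspa5 was the most counted of the list, at 847 to 1228 CPM in AL and 515 to 1361 CPM in CR (-0.34, adjusted p = 0.665).

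The proteasome list gave 0 of 9 called, and 0 at an unadjusted p under 0.05 in either direction, with a median of -0.25. Psmb10, an inducible catalytic subunit, was at 2.54 to 9.18 CPM in AL and 1.61 to 3.90 CPM in CR (-0.83, adjusted p = 0.410 by edgeR), and at -0.20 without AL 3, its highest library. Psme1, a subunit of the PA28 activator, was at -0.46 (adjusted p = 0.511). The assembly factor Pomp was the most counted, at 0.03 (adjusted p = 0.976). The ratio of the inducible subunits Psmb8, Psmb9 and Psmb10 to their constitutive counterparts was 0.0789 to 0.260 in AL and 0.0711 to 0.232 in CR (exact permutation p = 0.657). It was lowest in library 1 and highest in library 3 of both diets. Among peptidases outside the endoplasmic reticulum, 0 of 6 were called with edgeR and 1, Thop1, had an unadjusted p under 0.05. Thop1, which destroys peptides in the cytosol, was at 5.25 to 10.1 CPM in AL and 3.90 to 5.55 CPM in CR (-0.66, adjusted p = 0.222). Npepps was at -0.37 (adjusted p = 0.448), and Lap3, the most counted, at -0.31 (adjusted p = 0.485).

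Of 19 factors and receptor genes upstream of class I that were tested, 0 were called with edgeR. Before adjustment 2 passed p under 0.05 as higher and 3 as lower, with a median of -0.28 (-0.35 without CR 1 and -0.0066 without AL 3). The interferon gamma receptor chain Ifngr1 was at 10.4, 10.5, 23.2 and 8.22 CPM in AL 1 to 4 and at 5.66, 6.57, 6.93 and 4.94 CPM in CR 1 to 4. All its CR libraries lay below its AL libraries (-1.12, SE 0.31, adjusted p = 0.0927 by edgeR), and DESeq2 called it lower (adjusted p = 0.0262). Irf8, a factor of myeloid and B cells, was at -0.89 (adjusted p = 0.114). Jak1, the kinase of interferon receptors, was the most counted, at 134 to 184 CPM in AL and 97.2 to 122 CPM in CR (-0.46, adjusted p = 0.195). The 2 higher genes, named after their values were seen, were Irf9 and Stat2, partners in the type I interferon complex. Stat2 was at 10.3, 7.12, 12.8 and 9.18 CPM in AL 1 to 4 and at 14.8, 15.2, 13.9 and 18.0 CPM in CR 1 to 4 (0.65, adjusted p = 0.134), and Irf9 was at 0.74 (adjusted p = 0.195). Without AL 3, Irf9 was called higher by edgeR (1.13, adjusted p = 0.0346), and without CR 4, Irf8 was called lower (-1.07, adjusted p = 0.0381).

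Of 25 interferon-induced genes listed, 19 were tested and 0 were called with edgeR. Before adjustment 2 passed p under 0.05 in each direction, and the list had a median of -0.22, which ran from -0.76 without CR 3 to 0.25 without AL 3. DESeq2 called 1 of them higher, the interferon-induced GTPase Irgm1 (1.76, adjusted p = 0.0485), which was named after its value was seen and which edgeR called without CR 4 (2.08, adjusted p = 0.0304). Receptors that read class I, listed with some related receptors, were rare. Only 3 of 8 were tested, 0 were called with edgeR and 2 passed p under 0.05 before adjustment, both lower. Lilrb4a, an inhibitory receptor of myeloid cells, was listed as a related receptor and not as a known reader of class I. It was at 3.37 to 6.78 CPM in AL and 0.778 to 2.31 CPM in CR (-1.47, adjusted p = 0.0792 by edgeR), and DESeq2 called it lower (adjusted p = 0.0168). Pirb, which binds class I directly, was at 1.54 to 8.60 CPM in AL and 0.990 to 2.79 CPM in CR (-1.43, adjusted p = 0.174). The T cell coreceptor Cd8a was at -0.91 (adjusted p = 0.577).

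**Figure D4:**
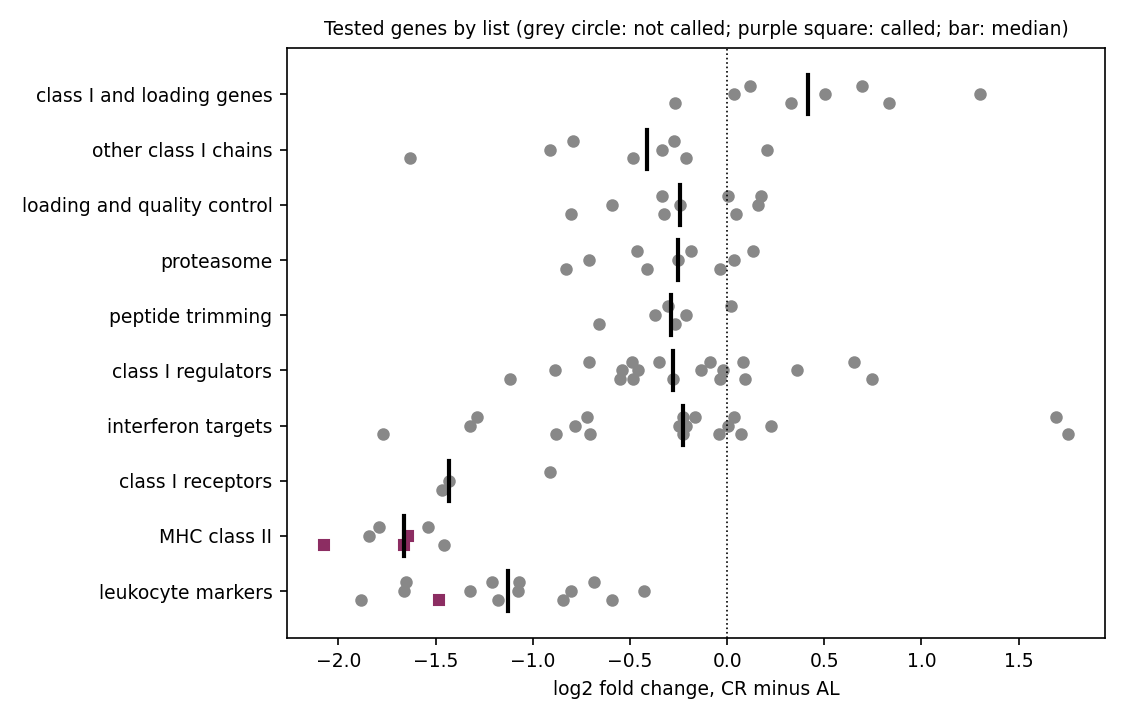
Log2 fold change (CR minus AL) of every tested gene of 10 lists, with grey circles for genes not called by edgeR, purple squares for genes called and a bar at each list's median. The class I and loading genes have a median of 0.41, the other chains, chaperones, proteasome, trimming, regulator and interferon lists have medians from -0.41 to -0.22 (without AL 3 the interferon median is 0.25 and the regulator median -0.0066), and the class I receptor list, which includes the related receptor Lilrb4a, at -1.43, MHC class II, at -1.66, and leukocyte markers, at -1.13, lie lower.

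The members did not share one profile over the libraries. Libraries numbered 3 were the highest in both diets for 5 of the 8 members tested (B2m, H2-K1, Tap1, Tapbp and Nlrc5), which is 62.5%, beside 9.87% of all genes tested. The same held for 6 of 7 class II genes and 10 of 19 interferon targets, including Gbp2, Gbp7 and Igtp, which were named after their values were seen. Igtp, an interferon-induced GTPase, was at 2.003, 3.01, 14.7 and 1.01 CPM in AL 1 to 4 and at 2.19, 1.60, 12.6 and 1.999 CPM in CR 1 to 4. Tap2 was highest in libraries numbered 4, and H2-D1 and Erap1 had their highest libraries at different numbers. Without both libraries numbered 3, a choice made after the values were seen, B2m was at 0.57, H2-K1 at 0.91, H2-D1 at 0.56, Tap1 at 0.91 and Nlrc5 at 1.60 on the log2 scale, and 0 of the 8 were called with edgeR (3 at an unadjusted p under 0.05). What the number 3 libraries share is not given in the labels.

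**Figure D5:**
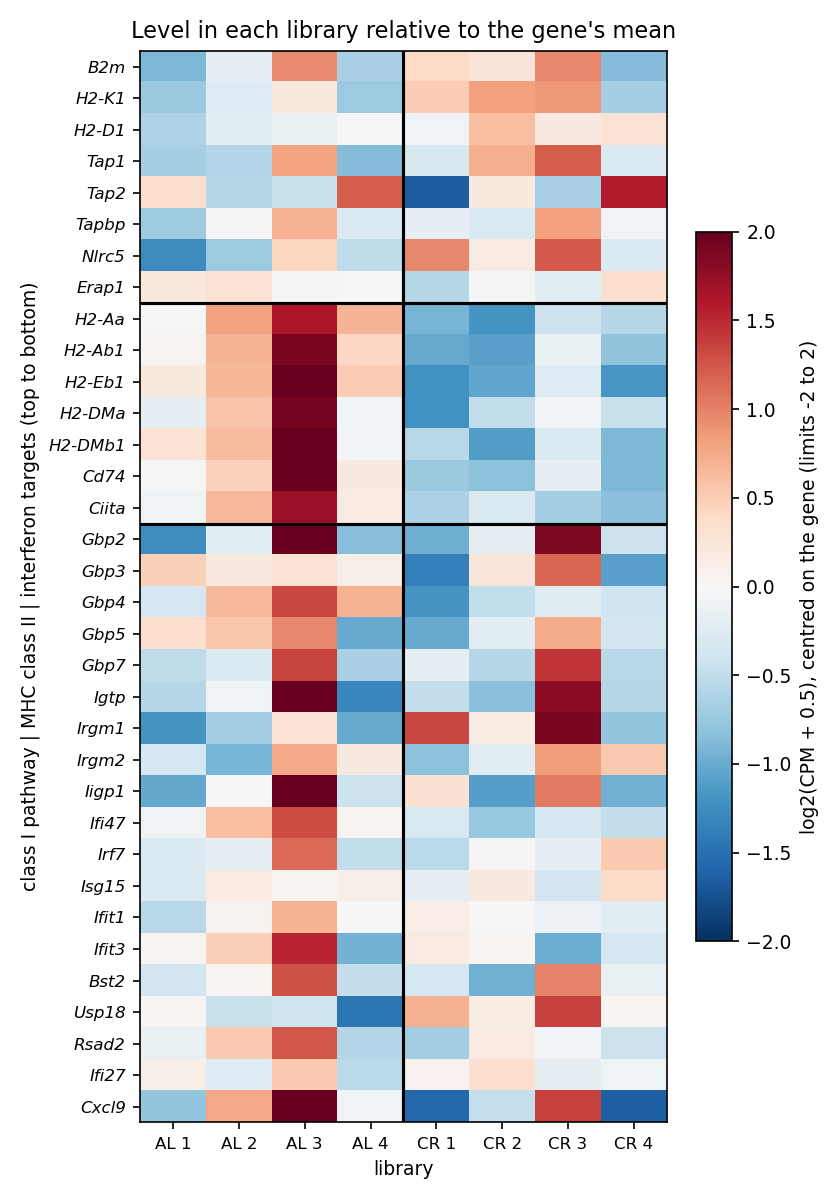
Log2(CPM + 0.5) of each tested class I, MHC class II and interferon target gene in the 8 libraries, centred on the gene's mean, with the colour scale limited to -2 to 2. AL 3 is red for most genes of all 3 blocks, CR 3 is red for most class I genes and several interferon targets, and the class II block is blue in nearly all CR cells.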

How the data were processed

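The authors prepared 3′ tag libraries with an oligo(dT)-primed Lexogen kit from total LG RNA, trimmed reads with cutadapt, checked them with FastQC, aligned them with STAR to mm10 and counted them per gene with HTSeq. The deposited values used here are their raw counts per gene. A table of normalized values was not used. The annotation and the strand setting are not given in the sources used here.

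Of 24557 genes listed, 5 repeated symbols were dropped. Counts of all 8 libraries were filtered (filterByExpr), scaled by relative log expression and tested with edgeR 4.0.16 in R 4.3.3 (glmQLFit, glmQLFTest, no covariate), with Benjamini-Hochberg adjustment over the 11211 genes tested. The thresholds of adjusted p under 0.05 and 1.5-fold are the study's. Ratios within libraries and the untested member were compared by two-sided exact permutation tests. For 2 ratios with a count of 0, 0.5 was added to both counts, a choice made after the data were seen. Alternatives included DESeq2 1.42.0, other scalings and filters, a replicate block, a parotid covariate and leaving out libraries. The members, lists and ratios were chosen with earlier results of these data known. Named are the members, the genes called in each list, in the pathway lists, class II and receptors also the 2 with the lowest unadjusted p and the most counted, and the 5 genes whose profile was nearest to the members' mean. All other genes named, such as Cd74, Ciita, H2-DMa, H2-Ob, Cd8a, Cd79a, Cxcl9, Gbp4 and Ifi47, were chosen after their values were seen. Libraries of 1 diet differed far beyond counting noise, so none was a repeat deposit. Gene positions and promoters are from RefSeq, exons and transcripts from GENCODE M21.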

Additional observations from a re-analysis of the deposited data

Results flagged for a closer look

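Of 30 groups of 4 libraries examined (9 genes and 6 ratios in each diet), 2 held a library far from the others, and chance gives about 1 in 20. Tap1 in AL 3 was at 11.66 CPM, with the next AL library at 4.17 CPM. Tapbp in CR 3 was at 48.85 CPM, with the next CR library at 26.3 CPM.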

How the results depend on the processing

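Over the alternatives run, H2-K1, H2-D1 and Tap1 were fitted higher in CR in 17 of 17, Nlrc5 in 16 of 16 and Erap1 lower in 17 of 17. The number of genes called higher and lower in CR was 399 and 305 with DESeq2, 271 and 165 without a filter on low counts, 388 and 312 with the replicate block, 0 and 0 with the parotid covariate (before adjustment, 599 and 476 passed p under 0.05) and 4 and 8 without both libraries numbered 3, and it ran from 35 to 453 and from 25 to 247 when 1 library was left out, lowest without AL 2 and CR 2 and highest without CR 4. Between 0 and 1 member was called higher when 1 library was left out, the 1 being H2-K1 without CR 4.

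Libraries with the same number correlated in their deviations from the diet means by 0.18, 0.0995, 0.28 and 0.51 over genes. The labels name no litter or day behind the numbers, and the pair at 0.0995 fell short of the value set for all pairs, so the numbers were not taken as pairing the mice, although 3 of 4 AL libraries correlated best with the CR library of their own number, a hint from the data and not from the design. With the replicate block H2-K1 was the 1 member called (0.77, adjusted p = 0.0432 by edgeR), 6 of 7 class II genes, 4 leukocyte markers, Canx (adjusted p = 0.0177), Ifngr1 (0.0223), Lilrb4a (0.0343) and Pirb (0.0408) were called lower, and of the interferon list Irgm1 was called higher and Cxcl9 lower, while Tap2 turned to -0.36 and Pomp to -0.041. In an exact sign-flip permutation test over the 4 pairs, the class II to class I ratio had p = 0.125, the smallest 4 pairs allow. With the parotid covariate, whose values do not overlap between the diets, Tap2 was at 2.17, B2m turned to -0.22, H2-M2 to 0.33, Hfe to 0.81, Azgp1 to 0.24, Psme1 to 0.29, Pomp to -0.16, Npepps to 0.31 and the parotid marker Prb1 to -0.66. Without both libraries numbered 3, Pomp was at -0.17. When 1 library was left out, Tapbp ran from -0.20 to 0.44, Tap2 from -1.26 to 0.77 and Pomp from -0.14 to 0.24. List medians ran from -0.63 to -0.14 for the other chains, from -0.39 to -0.06 for the chaperones, from -0.40 to -0.20 for the proteasome and from -0.49 to -0.22 for trimming, and the log2 difference in the ratio of inducible to constitutive proteasome subunits, -0.19, ran from -0.50 to 0.11. The cause of these turns was not tested.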

Other observations

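Over the 8 libraries, the genes outside the members whose centred log2(CPM + 0.5) profile lay nearest to the mean profile of the 8 tested members were Brap, Il6ra, 2810474O19Rik, Ddx21 and Fbxl19, with mean absolute differences of 0.0963, 0.101, 0.107, 0.115 and 0.115. That mean profile ran from -0.55 in AL 1 to 0.55 in CR 3, with AL 3 at 0.31 above CR 1 at -0.12 and CR 4 at 0.00. Il6ra, the interleukin-6 receptor, was at 0.925, 1.17, 2.11 and 1.17 CPM in AL 1 to 4 and at 1.27, 2.31, 3.22 and 1.44 CPM in CR 1 to 4, and it was not called (0.62, adjusted p = 0.55 by edgeR).

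Among the interferon targets, Irgm1, an interferon-induced GTPase named after its values were seen, was at 0.925, 1.53, 3.43 and 1.12 CPM in AL 1 to 4 and at 7.64, 3.08, 11.5 and 1.39 CPM in CR 1 to 4 (1.75, adjusted p = 0.163 by edgeR). As for Nlrc5, CR 1 and CR 3 were its highest libraries, and CR 4 its lowest CR library. Gbp4, of the guanylate-binding proteins, was at 0.771 to 3.57 CPM in AL and 0.212 to 0.867 CPM in CR (-1.77, adjusted p = 0.132), and Ifi47 was below every AL library in every CR library (-1.29, adjusted p = 0.140).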
